A study of Mus musculus with 28 samples.

Results

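The subject is how the transcripts of wild-type CD4+ T cells changed over 24 h on anti-CD3, the time at which stimulated lymphocytes have enlarged into blasts. The samples were chosen by their labels alone, and they are 7 of the 28 arrays of the series. All came from total CD4+ cells of the spleen of 12-week-old female C57BL/6 mice, the wild-type strain, for which the labels name no added or deleted gene. The 3 non-stimulated samples carry the time label "control", and the 4 stimulated ones had spent 24 h in U-bottom wells coated with antibody to CD3 (0.1 µg/ml). Of these 4, the labels call 2 biological and 2 technical. The 3 non-stimulated and the 2 biological 24 h arrays carry the comparison, and the technical pair served as a check only. The series also holds 3 wild-type arrays after 4 h and arrays of B6.Sle1b, a congenic strain with a lupus-linked interval of chromosome 1, and of Sle1b.BACSlamf6-H1, the same strain with a bacterial artificial chromosome named for Slamf6-H1, each non-stimulated and after 4 h and 24 h. The labels do not say whether the non-stimulated cells were cultured, and name no group cultured for 24 h without the antibody, so time in culture and the antibody's own effect cannot be told apart. Nor do the labels say that arrays of a group came from separate mice, so the p-values reflect how far these samples spread and no more, and that spread may be technical.

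Antibody to CD3 binds the invariant chains of the T cell receptor and so starts receptor signalling without an antigen. A resting T cell is small and out of cycle. Over the first day it builds ribosomes, takes up glucose and amino acids, makes cytokines and their receptors, and loads the enzymes of DNA replication before its first division. Genes that hold the naive cell at rest or guide it through lymph nodes are switched down in that time.

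Across the 10 wild-type arrays, the median linear intensity was 9.06 to 10.5, and 10431 to 12161 genes lay above background, the level of non-specific control probe sets. All values below are log2 intensities, changes are differences of log2 means ± standard error (SE), and a gene was called where limma's adjusted p over the 17097 genes was under 0.05. Array 2 of the non-stimulated group stood apart. Its 75th percentile was 34.8 against 48.1 and 48.9, and its log2 values differed from those of arrays 1 and 3 by 0.558 and 0.520 on average, where those 2 differed from each other by 0.148. Counts over all genes, and those of some lists, are therefore also given without it. Some lists without such a figure shifted as well. Respiratory chain and ATP synthase genes called higher at 24 h went from 40 to 48 without it, and TCA cycle genes from 10 to 8. The 3′ minus 5′ difference of the Gapdh control probe sets, which grows as RNA degrades, was 0.18 to 0.32 non-stimulated and 0.48 and 0.53 at 24 h (0.55 and 0.96 on the technical arrays), and its part in the results was not tested. The number of arrays limits the precision. The processing method that the submitters name normalizes arrays to each other, so each level is relative to the other transcripts on the array. The 75th percentiles of the deposited values still differed, also between the biological 24 h arrays (46.8 and 39.5), so array-wide differences remained. In such bulk samples fewer cells of a type and less RNA per cell cannot be told apart.

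At 24 h, 2688 genes (15.7% of those tested) were called higher and 1470 (8.60%) lower than in non-stimulated cells. The median over all genes was 0.04. List counts at 24 h are to be read beside these 15.7% and 8.60%, also where the shares are not repeated. A change of 2-fold or more was called upward in 1410 genes (8.25%) and downward in 729 (4.26%). In all 1410 of these rises and 728 of the 729 falls the non-stimulated and 24 h arrays did not overlap. Where the groups of a named gene are said below to lie apart, this therefore adds little to its call. Rises of 8-fold or more were called in 54 genes, against 36 falls of that size. Without array 2 of the non-stimulated group 2598 genes were higher and 1798 lower, and at 2-fold 1296 and 1012, so the count of falls depends on that array more than the count of rises.

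**Figure D1:**
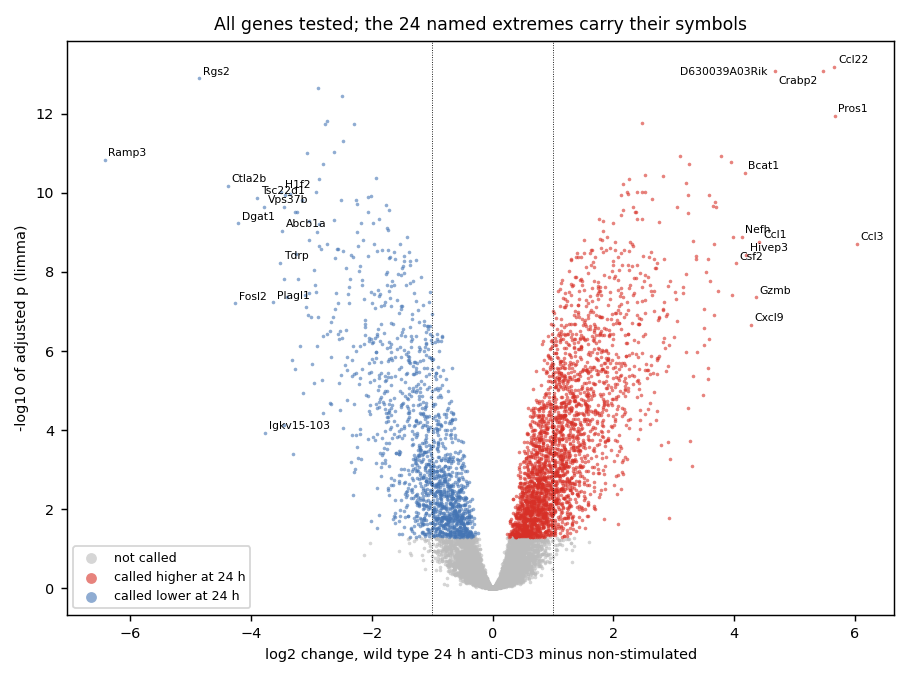
Change and adjusted p of each of the 17097 genes. The horizontal axis is the log2 change from non-stimulated to 24 h in wild-type cells (2 against 3 arrays), the vertical axis minus log10 of limma's adjusted p, dotted lines mark 2-fold, and Ramp3 and Ccl3 lie farthest out.

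The 12 largest rises were led by secreted proteins. Genes were eligible for the 12 rises and 12 falls only if called and without overlap between non-stimulated and 24 h arrays. That the groups lie apart in these genes was therefore set by the choice. Ccl3, an inflammatory chemokine, measured 2.98, 2.54 and 3.09 on the non-stimulated arrays and 9.51 and 8.30 at 24 h. The former lie at background, so its rise (6.03 ± 0.46, adjusted p = 1.95e-09) is a bound of at least 56-fold. Pros1, which encodes the anticoagulant cofactor protein S, lay at background as well (2.41, 3.08 and 2.64) and reached 8.31 and 8.44, at least 39.1-fold higher. In both genes each 24 h array was far above every non-stimulated array.

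Ccl22, a ligand of CCR4, measured 3.31, 3.66 and 3.36 before and 9.28 and 8.93 after 24 h, a 50.6-fold rise (5.66 ± 0.20, adjusted p = 6.56e-14). Crabp2, which carries retinoic acid to its nuclear receptor, went from 3.45, 3.48 and 2.82 to 8.87 and 8.58 (5.48 ± 0.21, adjusted p = 8.4e-14). At 4 h these 2 genes had stood at 4.02, 3.80 and 3.72 and at 3.60, 3.87 and 3.36, so the greater part of their rise came later. Ccl3 was different, with 8.43, 8.995 and 7.98 at 4 h, levels that overlap those of its 24 h arrays.

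The granule protease Gzmb was among the brightest of the 12, at 6.83, 6.23 and 7.16 before and 10.98 and 11.22 after stimulation (4.36 ± 0.41, adjusted p = 4.42e-08). Csf2, the growth factor GM-CSF, rose from 3.77, 2.85 and 3.49 to 7.62 and 7.18, and Ccl1, the ligand of CCR8, from 3.92, 4.27 and 3.78 to 8.85 and 7.96. For both the groups were far apart. Cxcl9, a ligand of CXCR3, went from background (2.83, 2.67 and 2.80) to 7.03 and 7.05, at least 15.5-fold. Beside these immune genes stood Bcat1, the cytosolic branched-chain aminotransferase (4.18 ± 0.24), Nefh, the heavy neurofilament chain (4.12 ± 0.30), the zinc-finger gene Hivep3 (4.20 ± 0.33) and D630039A03Rik (4.67 ± 0.18). A rise of that size in Hivep3 rests on 1 of its 5 probe sets. The other 4 measured 1.02, -0.03, -0.14 and 0.28, and the mean of all was 1.07. The non-stimulated arrays lay at 3.05, 2.88 and 3.35 for Bcat1 and at 4.83, 4.51 and 5.01 for Nefh, and the 24 h arrays at 7.48 and 7.06 and at 8.95 and 8.86.

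The 12 largest falls began with Ramp3, a partner chain of the calcitonin receptor-like receptor. It measured 10.98, 10.22 and 10.70 on the non-stimulated arrays, among the bright genes, and 4.79 and 3.63 at 24 h, an 86-fold lower level (-6.43 ± 0.35, adjusted p = 1.46e-11). At 4 h it still stood at 10.18, 9.48 and 9.21, far above the 24 h arrays. Rgs2, which shuts off G proteins of the Gq class, fell from 11.12, 11.22 and 11.04 to 6.71 and 5.84 (-4.86 ± 0.19, adjusted p = 1.28e-13), and its 4 h arrays lay between (10.001, 9.72 and 9.77). The 24 h arrays were the lowest of the 3 times for both genes.

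Ctla2b, an inhibitor related to the propeptide of cathepsins, went from 8.14, 8.37 and 8.38 to 4.13 and 3.69 (-4.39 ± 0.26). The AP-1 gene Fosl2 (-4.26 ± 0.41) and Dgat1, which makes triglycerides (-4.22 ± 0.30), were lower by about as much. Tsc22d1, a leucine-zipper regulator (-3.89 ± 0.25), the linker histone H1f2 (-3.50 ± 0.21) and Tdrp (-3.51 ± 0.29) had already been lower at 4 h (-2.06 ± 0.22, -1.63 ± 0.19 and -2.84 ± 0.26, each called), and the 4 h comparison shares the non-stimulated arrays. Vps37b of the ESCRT-I sorting complex (-3.78 ± 0.25), the zinc-finger gene Plagl1 (-3.63 ± 0.35) and the drug efflux pump Abcb1a (-3.48 ± 0.25) followed, and so did a variable segment of the immunoglobulin kappa chain, a product of B lineage cells. It had uneven values of 8.53, 6.40 and 8.79 before and 3.49 and 4.79 after (-3.77 ± 0.66, adjusted p = 0.000117). The plasma cell gene Jchain, given further on, moved beside it, and the part of plasma cell RNA in this change was not tested.

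**Figure D2:**
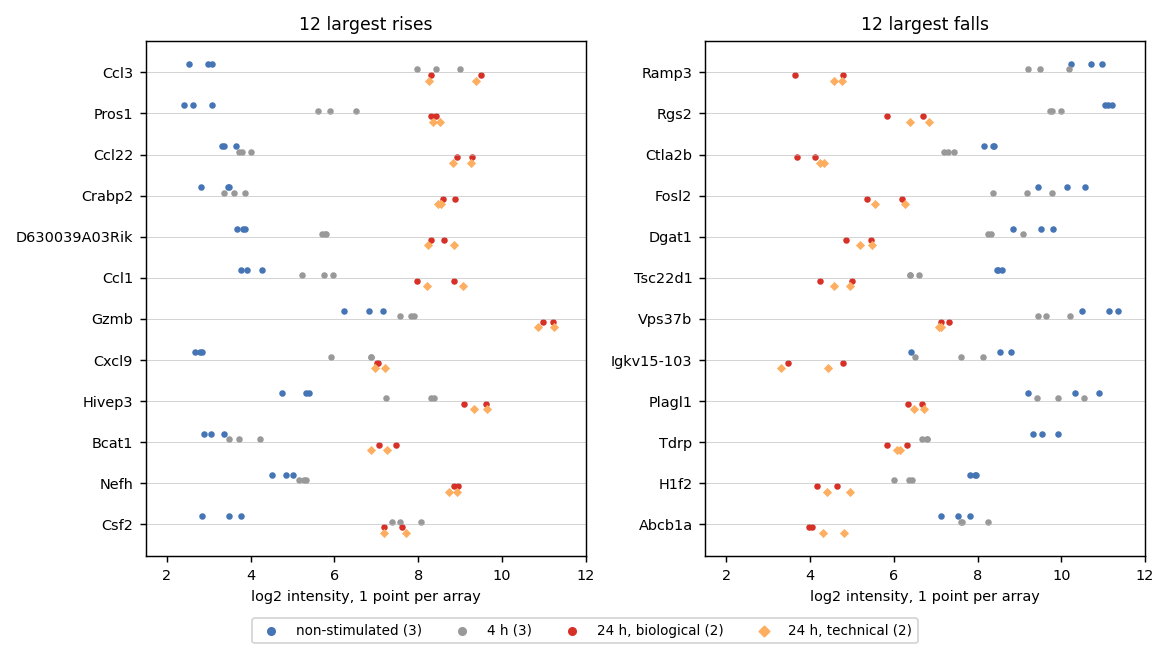
The 12 largest rises and the 12 largest falls among called genes, with 1 point per array and log2 intensity on the horizontal axis. Blue circles are the 3 non-stimulated, grey the 3 4 h and red the 2 biological 24 h arrays, and orange diamonds are the 2 technical 24 h arrays. No blue point overlaps a red one, because genes whose 2 groups overlapped were not eligible.

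Nearly all genes of DNA replication rose. The list holds origin factors, the helicase, primase, polymerases and clamp loaders, and 35 of its 38 members were called higher and 1 lower, against the 15.7% and 8.60% of all genes. Its median change was 1.91. The one that fell was Rpa1, the large chain of replication protein A (-0.50 ± 0.17), and the licensing factors Orc1 (0.35 ± 0.34, adjusted p = 0.604) and Cdt1 (0.28 ± 0.27, adjusted p = 0.582) were not called. Gins2, a subunit of the replicative helicase, measured 4.77, 4.49 and 4.62 before and 7.88 and 7.79 at 24 h (3.21 ± 0.19, adjusted p = 5.72e-11), while its 4 h arrays stood at 4.56, 4.48 and 4.29. Gins1 of the same complex rose by 3.37 ± 0.27 and Prim1, the catalytic primase chain, by 1.83 ± 0.13. Orc6 of the origin recognition complex rose by 1.85 ± 0.16. The MCM helicase ring rose in all its chains, from 1.30 for Mcm7 to 3.31 for Mcm3, and the origin loader Cdc6 went from 4.89, 3.74 and 4.11 to 7.71 and 7.57 (3.39 ± 0.40). The clamp Pcna, bright before stimulation at 11.37, 11.53 and 11.40, reached 12.09 and 11.96 (0.59 ± 0.11, adjusted p = 0.000323), the smallest called rise of the list. The mean over the list was 6.14 to 6.51 on the non-stimulated arrays, 6.19 to 6.49 at 4 h and 8.23 to 8.26 at 24 h, so the early and the non-stimulated arrays overlapped and the 24 h arrays lay apart. Between 4 h and 24 h, a comparison that shares the 24 h arrays, 35 members were called higher and 0 lower, against 12.0% and 6.67% of all genes. Between non-stimulated and 4 h, 2 were called higher and 1 lower, against 4.08% and 2.97%.

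Promoters of replication genes are known for binding sites of E2F factors, which act at the entry into S phase, and those of ribosome-building genes for the E-box that MYC binds with MAX. The 250 bases before each RefSeq start (GRCm38.p6) were searched on both strands for TTTCCCGC, TTTCGCGC, TTTGCCGC or TTTGGCGC as E2F letters and for CACGTG as the E-box. E2F letters were in 25.6% of the 39 windows of 31 of the replication genes (10 windows). They were in 7.69% of the 39 windows of 36 of the 42 ribosome biogenesis genes (3 windows). The shares were 4.91% of the 1446 windows of the genes with a 2-fold rise and 1.86% of all 32851 windows. Those 32851 belong to 27025 RefSeq genes, whether or not they were tested here. The E-box was in 10.3% (4 windows), 5.13% (2 windows), 10.1% and 6.02% of the same windows, so the ribosome biogenesis list held it no more often than all promoters. E2F letters and the E-box were in 4.76% and 9.52% of 21 windows of nucleotide synthesis genes, and in 0% and 5.71% of 35 windows of naive and quiescence genes. The 4 windows below belong to the replication and ribosome biogenesis genes with the smallest adjusted p that hold such letters, printed 5′ to 3′ on the gene's strand and ending at the base before the start. Capitals mark the matched letters, on either strand (GCGCCAAA is TTTGGCGC read on the other strand).
Rfc3, chr5:151651209-151651458, minus strand: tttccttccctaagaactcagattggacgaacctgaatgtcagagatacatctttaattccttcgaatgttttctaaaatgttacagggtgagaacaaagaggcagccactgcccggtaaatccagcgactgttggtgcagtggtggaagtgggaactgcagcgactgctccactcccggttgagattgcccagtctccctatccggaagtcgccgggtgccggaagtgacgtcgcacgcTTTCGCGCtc
Pola1, chrX:93632156-93632405, minus strand: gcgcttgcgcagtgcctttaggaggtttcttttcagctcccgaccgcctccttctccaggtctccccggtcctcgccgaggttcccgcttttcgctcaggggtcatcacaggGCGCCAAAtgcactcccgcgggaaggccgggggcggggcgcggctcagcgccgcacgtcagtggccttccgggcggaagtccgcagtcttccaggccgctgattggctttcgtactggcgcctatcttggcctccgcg
Nolc1, chr19:46075597-46075846, plus strand: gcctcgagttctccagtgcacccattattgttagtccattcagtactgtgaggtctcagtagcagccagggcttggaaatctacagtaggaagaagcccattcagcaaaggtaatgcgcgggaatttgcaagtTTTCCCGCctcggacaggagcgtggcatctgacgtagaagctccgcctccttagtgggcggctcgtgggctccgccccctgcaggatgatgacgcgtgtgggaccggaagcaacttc
Mcm5, chr8:75109259-75109508, plus strand: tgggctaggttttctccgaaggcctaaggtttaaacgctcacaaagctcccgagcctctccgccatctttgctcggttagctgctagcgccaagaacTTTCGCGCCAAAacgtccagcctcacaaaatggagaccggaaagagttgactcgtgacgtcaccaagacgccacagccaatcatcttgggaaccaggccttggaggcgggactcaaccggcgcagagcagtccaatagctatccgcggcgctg
Rfc3 codes for a clamp loader subunit, Pola1 for the catalytic chain of DNA polymerase alpha, Nolc1 for a nucleolar chaperone and Mcm5 for a helicase subunit. Their changes were 1.79 ± 0.16, 2.32 ± 0.22, 1.90 ± 0.19 and 2.87 ± 0.29, each called. In Mcm5 the capitals are 2 overlapping matches on opposite strands. Such matches describe the letters only, and binding was not measured.

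Enzymes that supply nucleotides rose as well. Of 21 enzymes of nucleotide synthesis, 19 were called higher and 0 lower, with a median of 1.70. Dut, which removes dUTP, went from 7.56, 7.10 and 7.17 to 9.77 and 9.80 (2.51 ± 0.22, adjusted p = 1.65e-08). Dctpp1, another nucleotide-cleansing enzyme, rose by 2.94 ± 0.26, Rrm1, the large chain of ribonucleotide reductase, by 1.70 ± 0.18, and Gmps, which makes GMP, by 1.21 ± 0.13. A dimmer second probe set of Gmps was not called (0.03 ± 0.30, adjusted p = 0.977).

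Cyclins, their kinases and mitotic genes followed with 31 of 40 called higher, 2 lower and a median of 1.66. The pair that fell were the CDK inhibitor Cdkn1a (-1.22 ± 0.23) and the centromeric histone Cenpa (-1.93 ± 0.24). The G1 kinase Cdk4 rose from 7.30, 6.84 and 7.0 to 9.36 and 9.39 (2.33 ± 0.18, adjusted p = 2.24e-09), and its partner Ccnd2 from 9.25, 8.75 and 9.60 to 11.23 and 11.08 (1.95 ± 0.18). Ccnd2 was already at 10.50, 10.65 and 10.45 after 4 h, unlike Cdk4 (7.41, 7.54 and 7.15). Ccne2, the S-phase cyclin E2, was lower at 4 h (-0.91 ± 0.25, adjusted p = 0.0242) and higher at 24 h (2.40 ± 0.27, adjusted p = 5.78e-07). The S-phase regulator Mybl2 rose by 2.02 ± 0.20. The probe set of Cdk4 may also read other transcripts, by its type.

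Transcripts of the machinery that makes ribosomes rose, while most of those for the proteins of the cytosolic ribosome were not called. Of 42 ribosome biogenesis factors, 40 were called higher and 0 lower, with a median of 1.40. Dkc1, the pseudouridine synthase of box H/ACA particles, measured 7.65, 7.72 and 7.85 before, 8.51, 8.81 and 8.55 at 4 h and 10.27 and 10.17 at 24 h (2.48 ± 0.12, adjusted p = 1.69e-12), with no overlap between any of the 3 times. Lyar (2.16 ± 0.14), Mrto4, a factor of the large subunit (2.40 ± 0.20), and Rrp1b (2.34 ± 0.20) rose as well. At 4 h, 9 of the 42 had been called higher and 0 lower, beside 4.08% and 2.97% of all genes at that time.

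Cytosolic ribosomal protein genes, among the brightest on the arrays, gave 2 of 67 called higher and 0 lower, beside 15.7% and 8.60% of all genes. Their median was -0.01 (3 higher without array 2 of the non-stimulated group). The pair called higher were Rpl7l1, a paralogue of Rpl7 (6.76, 7.18 and 6.88 before, 8.29 and 7.99 after; 1.20 ± 0.13), and Rpl14 (0.66 ± 0.17, adjusted p = 0.00461). The call of Rpl14 was lost without array 1 of the 24 h group (0.58, adjusted p = 0.0702). Rps2 measured 12.74, 12.55 and 12.77 and then 12.96 and 12.95 (0.27 ± 0.10, adjusted p = 0.06), and Rps16 12.87, 12.97 and 12.96 and then 12.71 and 12.71 (-0.22 ± 0.08, adjusted p = 0.0576). Levels near the top of an array's range can understate a change, and whether they did was not tested.

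Mitochondrial ribosomal proteins moved otherwise, with 59 of 73 called higher, 0 lower and a median of 0.98. All 73 changes were above 0. Mrpl17 went from 7.01, 6.90 and 7.07 to 8.85 and 8.76 (1.81 ± 0.13), Mrpl36 rose by 1.62 ± 0.13, Mrpl2 by 1.46 ± 0.13 and Mrps15 by 1.30 ± 0.12. The 24 h arrays of all 4 lay above every non-stimulated and 4 h array.

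Of 17 aminoacyl-tRNA synthetases, which load amino acids onto tRNA, 15 were called higher and 1 lower, with a median of 1.10. Wars, the tryptophan enzyme and also an interferon-induced gene, was up at 4 h (7.44, 7.33 and 7.26 against 5.89, 5.11 and 5.54) and stood at 7.73 and 7.79 at 24 h (2.25 ± 0.19, adjusted p = 6.52e-09). Kars (1.72 ± 0.18), Mars1 (1.97 ± 0.24) and Nars (1.08 ± 0.10) rose mainly between 4 h and 24 h (1.08 ± 0.18, 1.71 ± 0.24 and 0.76 ± 0.10). The probe set of Wars may also read other transcripts.

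Translation initiation factors rose in part, with 18 of 41 higher and 4 lower, beside 15.7% and 8.60% of all genes. Their median was 0.49. That list also holds the kinases of eIF2 and the 4E-binding proteins, which restrain initiation. Eif5a, which needs hypusine to work, rose from 11.18, 10.67 and 11.01 to 12.36 and 12.28 (1.37 ± 0.17), Eif2b1, of the eIF2 exchange factor, by 1.17 ± 0.14 and Eif1a by 1.42 ± 0.21. Eif2ak3, the eIF2 kinase PERK, fell from 8.70, 7.65 and 8.396 to 5.89 and 5.95 (-2.33 ± 0.29, adjusted p = 1.72e-06). So the 4 members with the smallest adjusted p were 3 factors that rose and a kinase that fell.

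Chaperones and the proteasome rose too. Of 19 heat shock proteins and chaperonins, 15 were called higher, among them the chaperonin subunits Cct8 (1.37 ± 0.14), Cct6a (1.22 ± 0.12) and Cct7 (1.20 ± 0.12), and 1 lower. The one that fell was the stress-inducible Hspa1b, from 8.18, 7.51 and 8.08 to 4.53 and 4.51 (-3.41 ± 0.32, adjusted p = 4.42e-08). Of 41 proteasome genes 35 were higher and 0 lower, with a median of 0.82. Those with the smallest adjusted p were the interferon-induced catalytic subunits Psmb8 (1.52 ± 0.11), Psmb9 (1.68 ± 0.14) and Psmb10 (1.21 ± 0.11) and the activator Psme2 (1.14 ± 0.10). Another bright probe set of Psmb9 was not called (0.51 ± 0.26, adjusted p = 0.201).

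Glycolysis rose with 17 of 20 members called higher, 0 lower and a median of 1.39. Tpi1, which interconverts the triose phosphates, measured 6.96, 6.87 and 6.51 before, 7.14, 7.13 and 6.75 at 4 h and 10.47 and 10.45 at 24 h (3.68 ± 0.24, adjusted p = 1.71e-10), 12.8-fold higher. Hk2, the inducible hexokinase that traps glucose, rose from 4.88, 4.12 and 4.99 to 8.29 and 8.09 (3.53 ± 0.30). For both genes the 4 h and non-stimulated arrays overlapped, and only the 24 h arrays stood higher. Aldoa (2.07 ± 0.17) and Pgk1 (1.83 ± 0.14), other enzymes of the pathway, rose by less.

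Oxidative metabolism shifted by smaller steps. Respiratory chain and ATP synthase genes had 40 of 66 called higher, 0 lower and a median of 0.51, led by Atp5g1 of the ATP synthase ring (1.41 ± 0.14), then Cox5a of cytochrome oxidase (0.98 ± 0.11) and the complex I subunits Ndufs7 (0.98 ± 0.13) and Ndufs3 (0.85 ± 0.13). Of 15 TCA cycle genes 10 were higher and 0 lower (median 0.73), with fumarase, Fh1, going from 8.18, 8.35 and 8.15 to 9.65 and 9.66 (1.43 ± 0.14). Suclg1 (1.12 ± 0.13), Idh3a (0.98 ± 0.12) and Suclg2 (1.05 ± 0.19) were also called.

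Serine and one-carbon genes, part of the ATF4 response, gave 9 of 19 higher and 1 lower, with a median of 0.998. Psat1 and Psph, successive enzymes of serine synthesis, rose by 3.05 ± 0.20 and 2.30 ± 0.17, and the mitochondrial Shmt2, which passes the carbon of serine to folate, by 2.62 ± 0.32. Mthfd1, which interconverts cytosolic folates, rose by 2.47 ± 0.30, and the stress factor Ddit3 was the member that fell (-0.49 ± 0.12). Psat1 measured 6.30, 5.55 and 6.15 before and 9.10 and 8.998 after.

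Polyamine genes were called in both directions. Srm, spermidine synthase, rose from 6.54, 5.42 and 6.47 to 10.18 and 10.05 (3.97 ± 0.37, adjusted p = 3.93e-08) and spermine synthase, Sms, by 1.38 ± 0.12, whereas Odc1, the first enzyme of the pathway, fell from 9.15, 8.68 and 8.81 to 7.37 and 7.35 (-1.52 ± 0.15, adjusted p = 7.29e-08). Sat1, which acetylates polyamines for export, fell as well (-0.95 ± 0.13). Of the 7 members 3 were called higher and 3 lower, beside 15.7% and 8.60% of all genes (2 and 3 without array 2 of the non-stimulated group).

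Lipid synthesis was in part higher. Cholesterol synthesis had 11 of 19 called higher and 1 lower (median 0.73), with the isoprenoid enzymes Idi1 (2.22 ± 0.14), Mvd (2.13 ± 0.20), Fdps (1.495 ± 0.19) and Fdft1 (1.17 ± 0.14) leading by p. In fatty acid synthesis 4 of 11 rose and 2 fell, beside 15.7% and 8.60% of all genes. Acaca, the rate-limiting carboxylase, rose by 1.80 ± 0.31 and Fasn, the synthase, by 1.80 ± 0.35, while the elongase Elovl5 (-1.46 ± 0.12) and the acyl-CoA synthetase Acsl3 (-1.35 ± 0.15) fell. Array 2 of the non-stimulated group was low in Fasn (7.33, 6.02 and 7.18 before, 8.62 and 8.68 after).

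Amino acid transporters were 2 higher, 2 lower and 7 not called of 11, beside 15.7% and 8.60% of all genes higher and lower. Without array 2 of the non-stimulated group 0 were higher and 3 lower. Slc7a5, the light chain of the large neutral amino acid carrier, was called at 1.32 ± 0.39 and its heavy chain Slc3a2 at -0.98 ± 0.29, and the cationic carrier Slc7a1 at 0.70 ± 0.25. These 3 calls were not stable. Without array 2 of the non-stimulated group Slc7a5 measured 0.89 (adjusted p = 0.0856) and Slc7a1 0.52 (adjusted p = 0.166), and Slc3a2 was not called without array 1 (-0.74, adjusted p = 0.0938), array 3 (-0.83, adjusted p = 0.0712) or the second 24 h array (-0.86, adjusted p = 0.138). Slc7a5 and Slc7a1 also lost the call without either 24 h array (adjusted p of 0.068 to 0.165), and Slc7a1 without array 3 of the non-stimulated group (0.74, adjusted p = 0.0609). A second bright probe set of Slc7a1 was not called (0.36 ± 0.25, adjusted p = 0.417). Slc38a2, a neutral amino acid carrier, fell from 9.87, 9.49 and 9.76 to 8.54 and 8.58 (-1.14 ± 0.16, adjusted p = 6.92e-06).

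**Figure D3:**
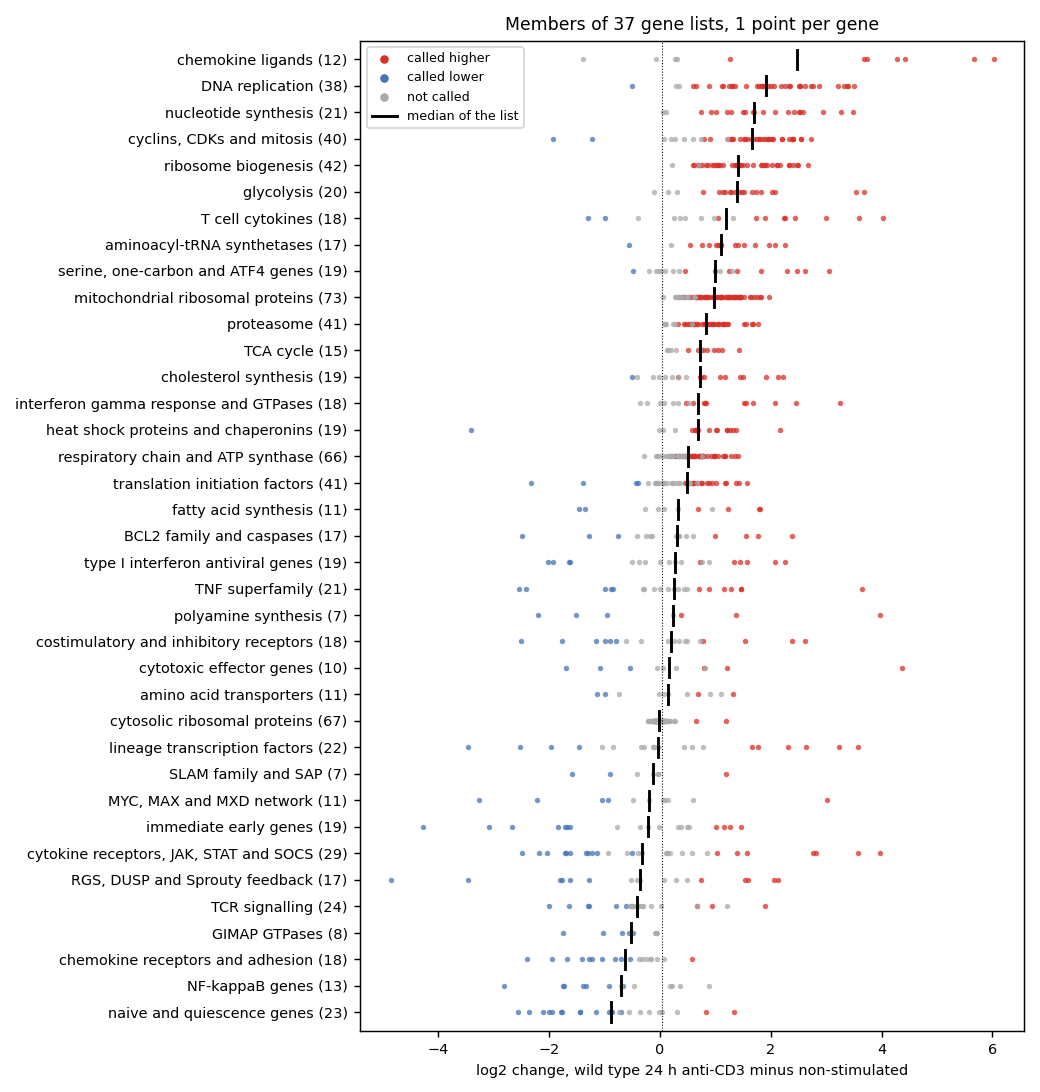
Log2 change from non-stimulated to 24 h for each member of the 37 gene lists, ordered by median. Points are genes, red called higher, blue called lower and grey not called, black bars are medians, the dotted line is the median of all genes (0.04) and numbers in brackets are members with a probe set. Growth and replication lists lie to the right, quiescence genes to the left, and many immune lists spread both ways.

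Myc, the growth regulator upstream of many of these pathways, rose from 7.57, 6.73 and 7.03 to 9.77, 9.75 and 8.72 at 4 h and 10.14 and 10.11 at 24 h (3.01 ± 0.28, adjusted p = 3.31e-08). Between 4 h and 24 h its difference was not called (0.71 ± 0.28, adjusted p = 0.0881). Some of its antagonists, which compete for MAX, were lower. Mxd4 fell from 8.79, 8.68 and 9.14 to 5.94 and 5.26 (-3.27 ± 0.22, adjusted p = 3.13e-10), Mxi1 from 9.09, 8.53 and 8.96 to 6.65 and 6.64 (-2.21 ± 0.19) and Mnt by a smaller step (-1.04 ± 0.25, adjusted p = 0.00318). In the list of 11, 1 member was higher, 4 were lower and 6 were not called, beside 15.7% and 8.60% of all genes higher and lower.

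Among T cell cytokines 9 of 18 were called higher and 2 lower, beside 15.7% and 8.60% of all genes, with a median of 1.19. Il2, the T cell growth factor, measured 4.79, 4.26 and 4.35 before, 6.598, 6.97 and 5.76 at 4 h and 8.49 and 7.61 at 24 h (3.59 ± 0.41, adjusted p = 4.99e-07). Ifng, interferon gamma, measured 6.79, 5.97 and 6.68, then 8.82, 8.56 and 8.48 and 9.72 and 9.24 (3.0 ± 0.34, adjusted p = 4.34e-07). Each was higher on every stimulated array than on any non-stimulated one, and the 24 h arrays were the highest. Csf2 stood at 7.57, 8.06 and 7.38 at 4 h, levels that overlap its 24 h arrays (24 h against 4 h -0.27 ± 0.33, adjusted p = 0.751, not called). Il16, made by resting lymphocytes, was lower (-0.997 ± 0.13), and so was Il10, an anti-inflammatory cytokine (-1.29 ± 0.33).

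Of 12 chemokine ligands 7 were called higher and 1 lower, with the largest median of the lists (2.47). The one that fell was Ccl5 (10.64, 9.72 and 11.38 before, 7.07 and 7.46 after; -3.32 ± 0.41), a product of memory and cytotoxic lymphocytes, and 2 were lower without array 2 of the non-stimulated group. Ccl4, another inflammatory chemokine, went from 4.68, 5.21 and 5.17 to 8.4, 9.05 and 8.51 at 4 h and 9.30 and 8.22 at 24 h (3.74 ± 0.35, adjusted p = 3.02e-08). For Ccl3 and Ccl4 the differences between 24 h and 4 h were 0.43 ± 0.46 and 0.11 ± 0.35, not called (adjusted p = 0.687 and 0.931). Ccl22 and Ccl1 rose further after 4 h (5.26 ± 0.20 and 2.77 ± 0.33, adjusted p = 2.98e-13 and 2.4e-06). On the 24 h arrays Ccl1, Ccl3 and Ccl4 were each higher on array 1 than on array 2.

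Of 29 genes of cytokine receptors, JAKs, STATs and SOCS 7 were higher and 11 lower, beside 15.7% and 8.60% of all genes. Il2ra, the high-affinity chain of the IL-2 receptor, measured 4.91, 4.26 and 5.01 before, 7.16, 7.24 and 7.05 at 4 h and 8.20 and 8.4 at 24 h (3.57 ± 0.29, adjusted p = 4.69e-09), and Il15ra rose by 2.75 ± 0.19. Il12rb1, a chain of the IL-12 and IL-23 receptors, lay at background before (3.12, 3.08 and 3.03) and at 7.27 and 6.83 at 24 h, at least 15.2-fold higher. In contrast Ifngr1, the ligand-binding chain for interferon gamma, fell from 10.92, 10.71 and 10.70 to 8.13 and 8.46 (-2.48 ± 0.12, adjusted p = 4.92e-12) and Il18r1 from 8.36, 7.97 and 8.58 to 6.11 and 6.15 (-2.17 ± 0.15). At 4 h they stood at 10.53, 10.50 and 10.64 and at 8.55, 8.41 and 8.48, close to the non-stimulated arrays, with changes of -0.22 ± 0.11 and 0.18 ± 0.14 that were not called (adjusted p = 0.355 and 0.679).

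In the TNF superfamily 7 of 21 rose and 5 fell, beside 15.7% and 8.60% of all genes. Lta, lymphotoxin alpha, went from 5.06, 4.38 and 5.24 to 8.49 and 8.58 (3.64 ± 0.24, adjusted p = 2.11e-10), and the death ligand Tnfsf10 rose by 1.46 ± 0.17. Fasl, the other death ligand, fell from 8.98, 9.32 and 9.10 to 6.98 and 6.21 (-2.54 ± 0.29, adjusted p = 4.92e-07), and so did the receptor Tnfrsf1b (-2.41 ± 0.29). In the cytotoxic list 3 of 10 were higher and 3 lower. After Gzmb its members by p were Gzmc, which rose from background to 3.58 and 3.32 (at least 1.29-fold), the granzyme B inhibitor Serpinb9 (0.80 ± 0.14) and the granule proteoglycan Srgn, which fell (-0.53 ± 0.10).

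Many interferon-induced genes stood higher at 4 h than at 24 h. Of 18 interferon gamma response genes 11 were called higher and 0 lower at 24 h (median 0.69), and at 4 h 14 and 0 (median 1.20), beside 4.08% and 2.97% of all genes at that time. Against 4 h, 8 members were lower at 24 h and 1 higher, beside 6.67% and 12.0% of all genes, again with the 24 h arrays shared. Gbp2, a guanylate-binding protein, measured 9.11, 8.66 and 9.15 before, 12.46, 12.50 and 12.65 at 4 h and 12.19 and 12.27 at 24 h (3.26 ± 0.18, adjusted p = 1.92e-11), and its difference between 24 h and 4 h was not called (-0.31 ± 0.18, adjusted p = 0.316). Iigp1, an immunity-related GTPase, went from 8.32, 7.55 and 8.38 to 11.25, 11.26 and 11.72 and then 10.51 and 10.55 (2.45 ± 0.25; 24 h against 4 h -0.88 ± 0.25, adjusted p = 0.0164). Without array 2 of the non-stimulated group 9 members were higher and 1 lower at 24 h.

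At 24 h 6 of 19 type I interferon antiviral genes were higher and 4 lower, beside 15.7% and 8.60% of all genes (4 and 6 without array 2 of the non-stimulated group). At 4 h 11 had been higher and 0 lower (4.08% and 2.97% of all genes), and 12 fell between 4 h and 24 h (6.67% of all genes). Usp18, which removes the ubiquitin-like ISG15, measured 5.15, 4.73 and 6.26 before, 8.84, 8.60 and 9.37 at 4 h and 7.62 and 7.66 at 24 h (2.26 ± 0.38, adjusted p = 8.67e-05). Xaf1 (1.44 ± 0.19), the oligoadenylate synthetase Oas2 (1.34 ± 0.31) and Oas3 (0.72 ± 0.18, adjusted p = 0.00387) were also higher at 24 h. The call of Oas3 was lost without array 2 of the 24 h group (0.63, adjusted p = 0.0613). The non-stimulated arrays differed among themselves here, with list means of 5.68 to 6.71.

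**Figure D4:**
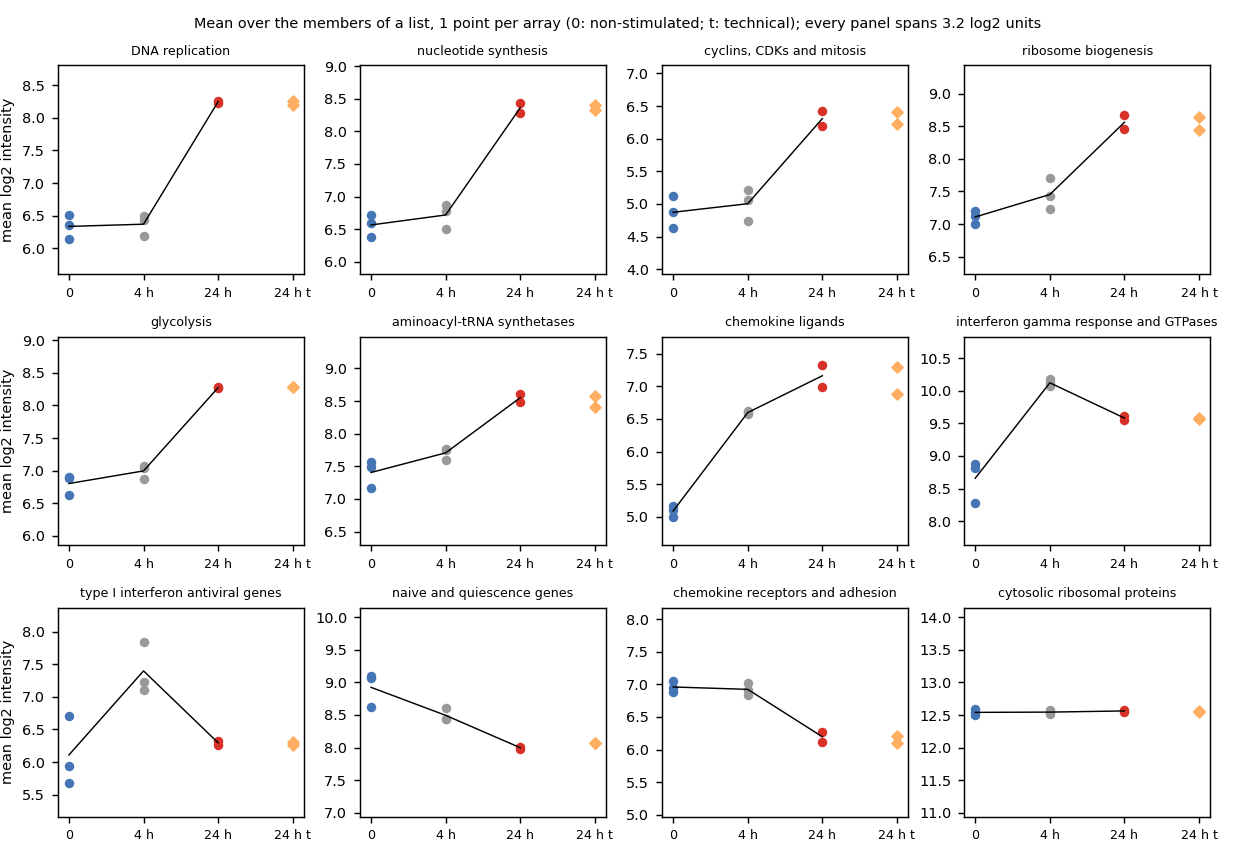
Mean log2 intensity over the members of 12 gene lists, with 1 point per array. Blue is non-stimulated (3 arrays), grey 4 h (3), red 24 h biological (2) and orange 24 h technical (2), lines join group means and every panel is of the same height in log2 units. Replication genes stay level to 4 h (6.19 to 6.49) and rise by 24 h, interferon lists are highest at 4 h, and cytosolic ribosomal proteins stay level.

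Of 18 costimulatory and inhibitory receptors 4 were higher and 6 lower, beside 15.7% and 8.60% of all genes. Tfrc, the transferrin receptor that brings in iron, rose from 7.61, 7.59 and 7.30 to 10.15 and 10.10 (2.62 ± 0.21, adjusted p = 3.09e-09), and the inhibitory ligand Cd200 from 5.96, 5.57 and 5.90 to 8.20 and 8.19 (2.38 ± 0.15). Ctla4, the inhibitory receptor for B7 proteins, fell from 9.88, 9.78 and 9.47 to 7.17 and 7.23 (-2.51 ± 0.16, adjusted p = 1.55e-10). Icos, its costimulatory relative, fell from 10.30, 10.16 and 10.14 to 8.42 and 8.43 (-1.77 ± 0.12, adjusted p = 2.05e-10), and at 4 h it was still at 10.26, 10.10 and 10.12. Both were bright on the non-stimulated arrays and lower on each 24 h array.

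Cd69, the early activation marker, was measured at 9.85, 10.58 and 9.63 before, 10.98, 11.26 and 11.06 at 4 h and 9.79 and 9.03 at 24 h. It was called higher at 4 h (1.08 ± 0.23, adjusted p = 0.00392) and lower at 24 h than at 4 h (-1.69 ± 0.26, adjusted p = 4.11e-05). From non-stimulated to 24 h it was not called (-0.61 ± 0.26, adjusted p = 0.102), and those arrays overlapped. It was called lower without array 3 of the non-stimulated group (-0.80, adjusted p = 0.0361) or array 1 of the 24 h group (-0.99, adjusted p = 0.027).

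Of 19 immediate early genes 4 were higher at 24 h and 7 lower, beside 15.7% and 8.60% of all genes (3 and 9 without array 2 of the non-stimulated group). Fos, an AP-1 subunit, fell from 8.81, 7.96 and 8.31 to 5.72 and 4.83 (-3.09 ± 0.31, adjusted p = 7.82e-08), Junb from 8.59, 7.33 and 8.10 to 6.48 and 6.18 (-1.68 ± 0.28) and Fosb from 5.98, 4.30 and 5.61 to background, at least 5.39-fold lower. With Fosl2 these were the 4 members with the smallest adjusted p. In each the 24 h arrays were below every non-stimulated array, among which array 2 was the dimmest.

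Of the feedback genes of receptor signalling the 4 with the smallest adjusted p, Rgs2 among them, were lower. Dusp1, a phosphatase of MAP kinases, fell from 10.73, 9.98 and 10.36 to 6.99 and 6.80 (-3.46 ± 0.23, adjusted p = 2.23e-10), and Dusp10 (-1.63 ± 0.15) and Rgs10 (-1.76 ± 0.13) were lower too. In that list of 17, 5 were higher and 6 lower, beside 15.7% and 8.60% of all genes. Of 13 NF-kappaB genes 0 were higher and 7 lower (9 without array 2), with a median of -0.70. Tnfaip3, the A20 brake on NF-kappaB, went from 11.69, 11.23 and 11.57 to 8.64 and 8.72 (-2.81 ± 0.15, adjusted p = 1.91e-11). Nfkbiz (-1.72 ± 0.26), Traf1 (-1.39 ± 0.19) and Birc3 (-0.92 ± 0.10) fell by less. The other probe set of Traf1 was not called (0.09 ± 0.24, adjusted p = 0.892), and the mean of both fell by 0.65.

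Of 24 genes of T cell receptor signalling 3 were higher and 7 lower, beside 15.7% and 8.60% of all genes (10 without array 2 of the non-stimulated group). Cd2, an adhesion receptor of T cells, fell from 11.43, 11.41 and 11.49 to 10.16 and 10.18 (-1.27 ± 0.10, adjusted p = 4.97e-09), and the adaptor Grap2 (-1.997 ± 0.23) and the phosphatase Ptpn22 (-1.64 ± 0.24) were lower. Ptpn6, the phosphatase SHP-1, rose by 1.90 ± 0.26. Cd3e, the chain the antibody binds, was not called (-0.41 ± 0.16, adjusted p = 0.0762), but was called lower without array 2 of the non-stimulated group (-0.59, adjusted p = 0.00699). Cd4 was called lower by a narrow margin (6.24, 6.00 and 6.23 before, 5.48 and 5.60 after; -0.62 ± 0.22, adjusted p = 0.0466), and not without array 1 (-0.58, adjusted p = 0.117) or 3 (-0.58, adjusted p = 0.112) of the non-stimulated or array 1 (-0.56, adjusted p = 0.233) or 2 (-0.68, adjusted p = 0.117) of the 24 h group.

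Genes of the naive and resting state fell. In that list of 23, 14 were called lower and 2 higher, with a median of -0.89 (1 higher, 15 lower and -1.04 without array 2 of the non-stimulated group). S1pr1, the receptor for leaving lymphoid organs, went from 10.16, 9.59 and 10.15 to 8.398, 8.23 and 8.26 at 4 h and 7.47 and 7.33 at 24 h (-2.56 ± 0.20, adjusted p = 2.65e-09). Klf2, which drives S1pr1, measured 10.74, 9.87 and 10.79 before and 8.64 and 8.77 after (-1.76 ± 0.29, adjusted p = 6.04e-05). The antiproliferative genes Tob1 (-2.35 ± 0.19) and Btg2 (-2.11 ± 0.23) and the CDK inhibitor Cdkn1b (-1.79 ± 0.17) were lower, and no 24 h array reached a non-stimulated one.

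Chemokine receptors and adhesion genes fell with them, 10 of 18 lower and 1 higher (median -0.62; 9 and 0 without array 2 of the non-stimulated group). Cxcr6, the receptor for Cxcl16, measured 8.88, 9.05 and 8.78 before, 9.38, 9.43 and 9.46 at 4 h and 6.92 and 6.09 at 24 h (-2.40 ± 0.22, adjusted p = 3.67e-08). P2ry10 (-1.40 ± 0.17), Ccr2 (-1.67 ± 0.27) and Ccr9 (-1.27 ± 0.21), receptors for lysophospholipids, CCL2 and CCL25, also fell. The GIMAP GTPases of resting lymphocytes had 5 of 8 lower and 0 higher, the largest fall being Gimap6, from 11.12, 11.04 and 11.02 to 9.44 and 9.19 (-1.75 ± 0.15). Gimap3 (-1.02 ± 0.22), Gimap8 (-0.69 ± 0.17) and Gimap4 (-0.55 ± 0.13) fell by less, and Gimap8 was not called without array 2 of the 24 h group (-0.62, adjusted p = 0.0599).

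Of the 17 genes of the BCL2 family and caspases, which govern cell survival, 4 were higher and 3 lower, beside 15.7% and 8.60% of all genes. The antiapoptotic Bcl2l1 (Bcl-xL) rose from 6.00, 5.61 and 5.58 to 8.15 and 8.09 (2.39 ± 0.16, adjusted p = 4.62e-10), mostly between 4 h (6.34, 6.31 and 6.32) and 24 h. Bcl2, of the same function, rose from 7.496, 6.67 and 7.499 to 8.67 and 8.89 (1.56 ± 0.23) and at 4 h already stood at 8.99, 8.86 and 8.87. The proapoptotic Bid rose by 1.78 ± 0.26, while the proapoptotic Pmaip1 (Noxa) fell from 7.55, 6.74 and 7.22 to 4.98 and 4.38 (-2.49 ± 0.28). Bcl2l1 was higher, and Pmaip1 lower, on both 24 h arrays than on all non-stimulated ones.

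Of 22 lineage transcription factors 6 were higher and 4 lower, beside 15.7% and 8.60% of all genes (7 lower without array 2 of the non-stimulated group). Batf3 rose from 3.43, 3.28 and 3.38 to 5.79 and 6.21 (2.64 ± 0.25) and the related Batf by 1.67 ± 0.21. Rora, a factor of Th17 and innate-like cells, fell from 7.74, 7.14 and 7.41 to 4.30 and 3.65 (-3.46 ± 0.30, adjusted p = 1.51e-08), and Ikzf2 (Helios) was lower too (-1.97 ± 0.18).

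The SLAM family had 1 of 7 members higher and 2 lower, beside 15.7% and 8.60% of all genes. Its adaptor Sh2d1a (SAP) fell from 8.76, 9.36 and 8.82 to 7.38 and 7.40 (-1.59 ± 0.18, adjusted p = 4.59e-07), Ly9 rose by 1.20 ± 0.25, and Cd84 was not called (-0.42 ± 0.21). Slamf6 was called lower through the probe set that stands for the gene (7.41, 7.27 and 7.18 before, 6.59 and 6.19 after; -0.89 ± 0.19, adjusted p = 0.00081). Its other 2 probe sets measured 0.62 ± 0.23 and 0.35 ± 0.14 and were not called (adjusted p = 0.0591 and 0.0809 over all probe sets). The first of these was the brighter in wild type (group means of 7.85 and 8.47, against 7.28 and 6.39), so the direction holds for the called probe set alone.

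**Figure D5:**
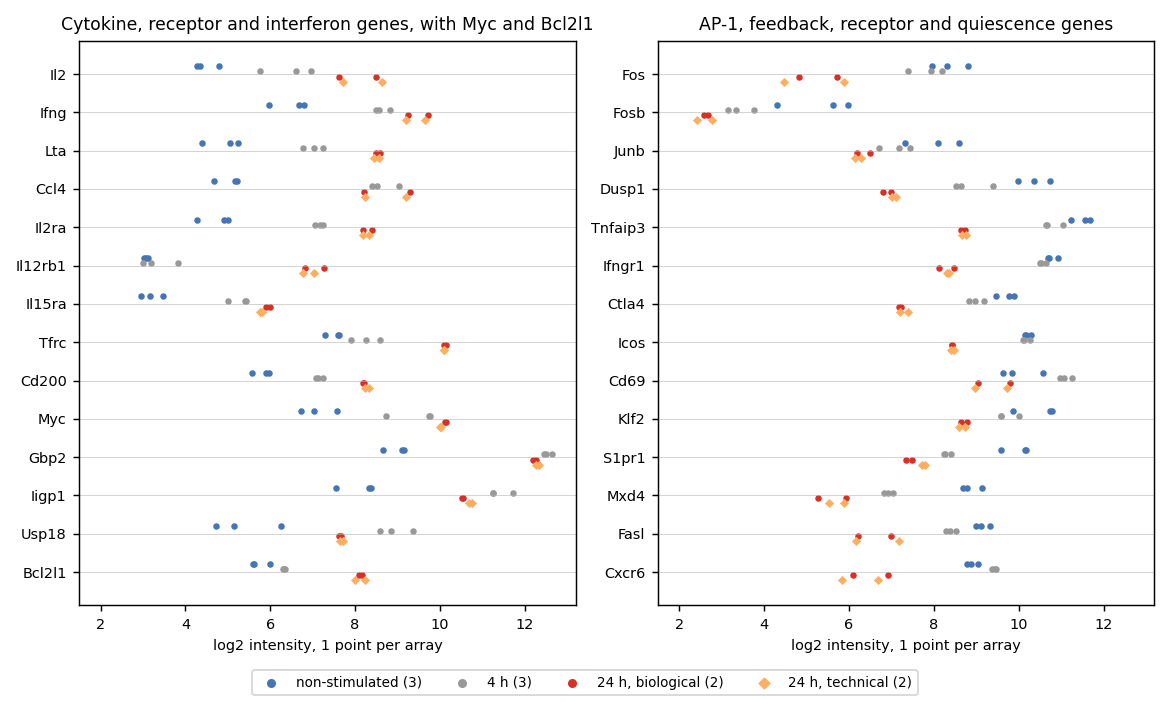
Log2 intensity of 28 immune and regulatory genes, with 1 point per array. Blue circles are the 3 non-stimulated, grey the 3 4 h and red the 2 biological 24 h arrays, and orange diamonds the 2 technical ones. Il2, Lta and Il2ra climb at each time, Gbp2, Iigp1 and Usp18 are highest at 4 h, Cd69 is highest at 4 h, and Fos, Fosb, Junb and Dusp1 on the right have their highest mean before stimulation.

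The labelled cell type was checked on its markers. Of 6 T cell markers Cd2 and Cd4 were lower at 24 h (3 lower without array 2 of the non-stimulated group). Not called were Cd3e (-0.41), Cd3g (-0.41), Cd5 (0.46) and Thy1 (0.25). The summed linear intensity of the 6 was 5956 to 6134 before and 4259 to 4348 at 24 h. That fall leans most on Cd2, the brightest before, whose log2 mean went from 11.44 to 10.17. The defining CD8 genes Cd8a and Cd8b1 were dim at both times, with a sum of 44.6 to 52.2 before and 34.3 to 41.4 after. Plasma cell markers fell, 3 of 3 lower and a sum of 3769 to 6175 against 1386 to 1936. Jchain, the joining chain of secreted IgM and IgA, went from 11.98, 11.23 and 11.97 to 7.73 and 9.19 (-3.27 ± 0.42, adjusted p = 2.91e-06). Of 14 B cell markers 3 were lower and 0 higher, beside 8.60% and 15.7% of all genes, with sums of 1940 to 2746 and 1759 to 2274. Pax5 and Cr2 lay at background at both times. Other B cell genes were above it, among them the receptor chain Cd79b (8.27, 8.23 and 7.66 before, 7.09 and 6.55 after), Ms4a1, which encodes CD20 (7.11, 7.73 and 6.91 before, 8.08 and 7.49 after), and the kinase Blk (6.99, 6.06 and 6.56 before, 5.198 and 4.94 after). The class II gene H2-Aa was at 10.08, 10.18 and 9.53 and 9.61 and 9.34.

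NK cell markers had 4 of 6 lower and 0 higher, beside 8.60% and 15.7% of all genes (2 lower without array 2 of the non-stimulated group). They summed to 524 to 782 before and 298 to 309 after. The largest fall was that of Klrc1, an NK and T cell lectin receptor (7.49, 7.69 and 7.58 before, 6.10 and 5.25 after; -1.91 ± 0.30). Of 4 platelet markers Pf4 alone was called, and higher (1.86 ± 0.39, adjusted p = 0.000805). No marker of monocytes and macrophages (11), neutrophils (6), dendritic cells (5) or erythroid cells (3) was called. Macrophage markers summed to 98.3 to 113 before and to 105 on both arrays after, with C1qa, C1qb, Hmox1 and Vcam1 at background at both times. Neutrophil markers summed to 57.2 to 163 and 59.7 to 76.5, dendritic cell markers to 52.0 to 58.0 and 47.8 to 58.4, platelet markers to 65.6 to 87.0 and 147 to 254, and erythroid markers to 1376 to 3813 and 588 to 1770. What part these other cells' RNA had in the changes above was not tested.

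The 2 technical 24 h arrays were set beside the biological pair. Between the pairs 0 of 17097 genes (0%) were called by limma, with 340 at an unadjusted p under 0.05. The labels do not name the RNA that the technical arrays repeat. If it is that of the biological pair, few calls could arise. Neither the count of 0 nor the values below are therefore an independent check. Technical array 3 lay closest to biological array 1 (0.101 mean absolute log2 difference) and technical array 4 to biological array 2 (0.134), and the biological pair differed by 0.192. Il2 measured 8.65 and 7.72 on the technical arrays, Gins2 7.90 and 7.64 and Ramp3 4.77 and 4.57. The list medians against the same non-stimulated arrays were 1.83 for replication, 1.40 for ribosome biogenesis, 1.39 for glycolysis and -0.80 for quiescence.

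The other strains had the same contrast measured on their own arrays, 3 against 3. In B6.Sle1b 1028 genes (6.01%) rose and 1088 (6.36%) fell by 2-fold or more, and in Sle1b.BACSlamf6-H1 1411 (8.25%) and 980 (5.73%). Wild type had 1410 and 729, or 1296 and 1012 without array 2 of its non-stimulated group. Of the wild-type rises, 964 were also 2-fold rises in B6.Sle1b, which is 68.4% of the wild-type and 93.8% of the B6.Sle1b genes, and 1201 in the other strain (85.2% and 85.1%). Of the falls, 686 were shared with B6.Sle1b (94.1% of the wild-type and 63.1% of its own) and 657 with the other strain (90.1% and 67.0%). These shares include array 2 of non-stimulated wild type. In B6.Sle1b, array 3 also had a low 75th percentile, both non-stimulated (35.6, against 47.0 and 53.3) and at 24 h (35.6, against 39.8 and 40.6). The part of such arrays in the shares was not tested.

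A different size of the 24 h response in another strain was called in 0 genes (0%) by limma's interaction test, both for B6.Sle1b (821 genes at an unadjusted p under 0.05, smallest adjusted p = 0.41) and for Sle1b.BACSlamf6-H1 (315, smallest adjusted p = 0.309). With the replicate number as a block 2 genes and 1 gene were called, and without array 2 of the wild-type 24 h group 1 gene for B6.Sle1b. The median of the replication list was 1.91 in wild type, 1.599 in B6.Sle1b and 1.90 in Sle1b.BACSlamf6-H1. Ccl3 changed by 6.03, 6.23 and 6.35 in that order, Ramp3 by -6.43, -6.13 and -5.95, Ifngr1 by -2.48, -2.28 and -2.39, and Il2 by 3.59, 3.45 and 3.73.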

How the data were processed

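Each sample's total RNA was read on an HT MG-430 PM array from Affymetrix. The authors deposited the intensity of each probe set on a linear scale. The submitters' processing notes name RMA, whose version is not given in the sources used here. This method corrects background, normalizes arrays to each other and summarises probes, so levels are relative. Here log2 was taken. Of 45141 probe sets, 28898 carry 1 gene symbol in the platform's annotation, and each of 17097 genes was tested through the probe set brightest by its mean over the 26 biological arrays.

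limma 3.58.1 (R 4.3.3) fitted 9 groups over 26 biological arrays, with eBayes and Benjamini-Hochberg adjustment. Background was the 95th percentile of 23 non-specific control probe sets; "at least N-fold" sets the brighter group against it. Steps were tested on simulated data.

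Genes named are the 12 largest rises and falls with non-overlapping arrays and up to 4 members per list by adjusted p. Preset genes (Cd69, Il2ra, Myc, Il2, Ifng, Klf2, Cd4, Cd3e, Slamf6) were named as well. Printed promoters are of the replication and ribosome biogenesis genes lowest in p that held the letters outside chromosome 18. Markers, and members named as exceptions (such as Rpa1, Orc1, Cdt1, Cdc6, Pcna, Mcm3, Mcm7, Cdkn1a, Cenpa, Ddit3, Il10 and Ccl5), were chosen after their values were seen. Members and lists were chosen with earlier results of these data known.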

Additional observations from a re-analysis of the deposited data

How the results depend on the processing

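The 4158 calls at 24 h became 2579 with only the 5 arrays compared and 6398 with every probe set tested on its own (more tests, several per gene; the former has fewer samples). Other alternatives gave 3452 to 5859 calls, and leaving out 1 array gave 3036 to 4396. Against 4 h, 3186 calls became 2093 without array 1 of the 24 h group, and leaving out 1 array gave 2093 to 2890. The replicate block gave 4313 calls at 24 h and 3315 against 4 h, and 2 (B6.Sle1b) and 1 (Sle1b.BACSlamf6-H1) in the interactions, where leaving out 1 array gave 0 to 1 and 0 to 0. Whether its numbers pair the samples is not known. Same-numbered arrays 1 and 2 of non-stimulated and 24 h wild type deviated from their group means with r = -0.008 and -0.027. With 2 arrays at 24 h those deviations mirror each other, and other groups were not checked, so this cannot decide the pairing. The 2-fold count (2139) ranged from 1527, with log2(value + 16), to 2321, and leaving out 1 array gave 1889 to 2308; counts by this rule, and list counts without array 2, were added after seeing the data.

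Of the 168 named genes 163 were called, and 152 of these kept the call in all 20 alternatives. Most were named for a small p or a large called change, so these counts do not stand for all genes. Over all genes 15.7% were called higher and 8.60% lower. Of those 4158 calls, 2563 were kept in the same direction with only the 5 arrays compared. Only Slamf6 reversed, to 0.025 as the mean of its probe sets. Mnt, Gimap4 and Srgn lost calls in some alternatives beside those named above. Cd3e, Cd69, Cd84, Rps2 and Rps16, not called here, were called in some alternatives. The mean of the probe sets was over 1.5 times smaller in 29 called genes: Acaca, Acsl3, Atp5g1, Bcat1, Bcl2l1, Bid, Ccr2, Ccr9, Cct8, Cd4, Eif2ak3, Gmps, Grap2, Hivep3, Ikzf2, Mnt, Mrpl17, Mybl2, Plagl1, Psmb9, Rora, Shmt2, Slamf6, Slc7a1, Sms, Tfrc, Tnfrsf1b, Tob1 and Traf1. In 5 of them (Gmps, Psmb9, Slamf6, Slc7a1 and Traf1) a probe set above a log2 level of 5 was not called the same way. Probe sets that may read related transcripts stand for Acsl3, Aldoa, Ccr9, Cdk4, Dgat1, Eif5a, Elovl5, Gimap4, Gins2, Mvd, Plagl1, Rps16, Suclg2 and Wars.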
